A study of Mus musculus with 18 samples.

Results

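The 38 cell cycle and replication genes described here were looked up by gene symbol in a table of 24781 gene entries, and all 38 were present with at least 1 count. The rule is a list of gene symbols and uses no measured value, but the list was chosen with earlier results of these data known. They comprise 7 genes of the replicative helicase and its sliding clamp, 4 genes of nucleotide synthesis, 5 G1 cyclins and kinases, 18 genes of the mitotic programme and 4 chromatin and tubulin genes that non-dividing cells also express. The levels were measured in group 2 innate lymphoid cells (ILC2), lymphocytes without rearranged antigen receptors that secrete type 2 cytokines. Libraries were made from sorted mature ILC2 of bone marrow, immature ILC2 of bone marrow (also labelled ILC2P) and ILC2 of lung, with 3 libraries from control mice and 3 from CD45 KO mice for each, 18 in all. Every mouse was a Rag2 KO, without the recombinase that T and B cells need to mature. The mice called control here were Rag2 KO alone, although their library titles say WT, and the CD45 KO mice lacked both genes. The labels give no age, agent or sort markers and do not say whether the 3 libraries of a group came from separate mice, so p-values measure the spread between these libraries, which may be technical.

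Entry into the cell cycle runs through the D-type cyclins with Cdk4 and Cdk6, which phosphorylate the retinoblastoma proteins and release E2F factors. E2F factors raise the genes for the helicase, the clamp and nucleotide synthesis in late G1, while the genes of mitosis rise later under B-Myb and FoxM1 complexes. Most tissue ILC2 of an unchallenged adult mouse are resting cells that are maintained locally, and the marrow holds their dividing precursors. CD45, encoded by Ptprc, is a receptor tyrosine phosphatase that acts on Src-family kinases downstream of antigen and cytokine receptors.

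The libraries were small, with total counts of 68077 to 122250 and 7189 to 8793 genes detected per library. Levels are CPM, counts scaled to a common library size after TMM normalisation, which corrects for differences in composition, and are given as mean ± SD (n = 3). Where a library has no count of a gene, its level may still be as high as 44.7 CPM at the smallest depth (3 counts, counting error only). Only 1916 genes had enough counts for the test across genes, and 7 of the 38 were among them: Pcna, Ccnd2, Ccnd3, Cdk6, Hmgb1, Hmgb2 and H2afz. The other 31 are given as counts and as summed levels. Ptprc, the targeted gene (chromosome 1, 138062861 to 138175708, minus strand, mm10), was lower in CD45 KO at each site, with log2 changes of -1.68 ± 0.29, -2.01 ± 0.31 and -1.86 ± 0.27 (SE) in mature, immature and lung ILC2 (edgeR quasi-likelihood test, Benjamini-Hochberg adjusted p at most 0.00015). The 10 markers that define ILC2 (Gata3 with the most counts) summed to 6218 to 11176 CPM per library. Mature control replicate 1 held 142 counts of granulocyte and macrophage markers (2116 CPM), against 0 to 167 CPM in the other 17 libraries. Libraries of every group differed from each other by more than sampling noise (chi-square test, p at most 0.0061 for each pair). Mature CD45 KO replicate 1 differed most from the other 2 of its group (chi-square per degree of freedom 2.55 and 2.74, against 1.10 between those 2). Pairs in the other groups reached at most 1.67. The ribosomal RNA entry Rn45s held 16.1% of the counts of mature CD45 KO replicate 1, against 9.93% and 8.88% in replicates 2 and 3. No 2 libraries were identical.

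Summed over all 38 genes, immature CD45 KO ILC2 held the highest level of the 6 groups. The 3 immature CD45 KO libraries were at 3263, 4240 and 3203 CPM and the 3 immature controls at 2830, 2636 and 2380 CPM, a ratio of means of 1.36. Every immature CD45 KO library was above every immature control library. The sum of the ILC2 defining markers moved the other way between these groups, at 8192, 8570.0 and 7408 CPM in immature controls and 6624, 7001 and 6218 CPM in immature CD45 KO (ratio 0.82, without overlap). Of these markers Il1rl1, the IL-33 receptor, fell by 0.71 ± 0.15 (adjusted p = 0.00298, edgeR) and Rora, a transcription factor of the lineage, by 0.82 ± 0.23 (adjusted p = 0.0408). None of the other markers passed. Id2 (0.14 ± 0.14, without overlap) and Il2ra (0.09 ± 0.17, with overlap) were higher in immature CD45 KO, and the rest were lower. The part of the marker difference in the cell cycle sum was not tested. In mature ILC2 the libraries were at 2027, 2429 and 2767 CPM in controls and 2538, 2662 and 2587 CPM in CD45 KO (ratio 1.08), and these groups overlapped. In lung ILC2 they were at 2458, 2246 and 2286 CPM in controls and 2295, 3648 and 2118 CPM in CD45 KO (ratio 1.15). The lung excess came from 1 library, CD45 KO replicate 2, and without it the log2 ratio of 0.21 was -0.08. In bulk samples a change in the share of dividing cells and a change in RNA per cell cannot be told apart.

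Counts of genes in each direction do not weight by abundance. In immature ILC2, 29 of the 38 genes had a higher mean level in CD45 KO and 9 a lower one, with a median difference of 0.56 on the log2(mean CPM + 10) scale. Over all 12945 genes with a count, 40.6% were higher and 47.1% lower, with a median of 0.00. In mature ILC2, 19 of the 38 were higher and 14 lower, with a median of 0.00, against 41.1% higher and 45.5% lower over all genes. In lung ILC2, 24 were higher and 10 lower (median 0.38, against 38.9% higher and a median of 0.00 over all genes), but 16 were higher and 14 lower without CD45 KO replicate 2 (median 0.00). In immature ILC2 the lowest count with 1 library left out was 25 higher and 9 lower (median 0.15), without CD45 KO replicate 2. Of the 38 genes, 8 were higher in every immature CD45 KO library than in every immature control (Cdk6, Mcm6, Mcm7, Mki67, Pcna, Rrm2, Stmn1 and Top2a), as were 3.85% of all genes with a count, many of which have too few counts to separate groups. In lung 3 were (Cks2, Mcm3 and Stmn1), beside 4.22% of all genes.

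**Figure D1:**
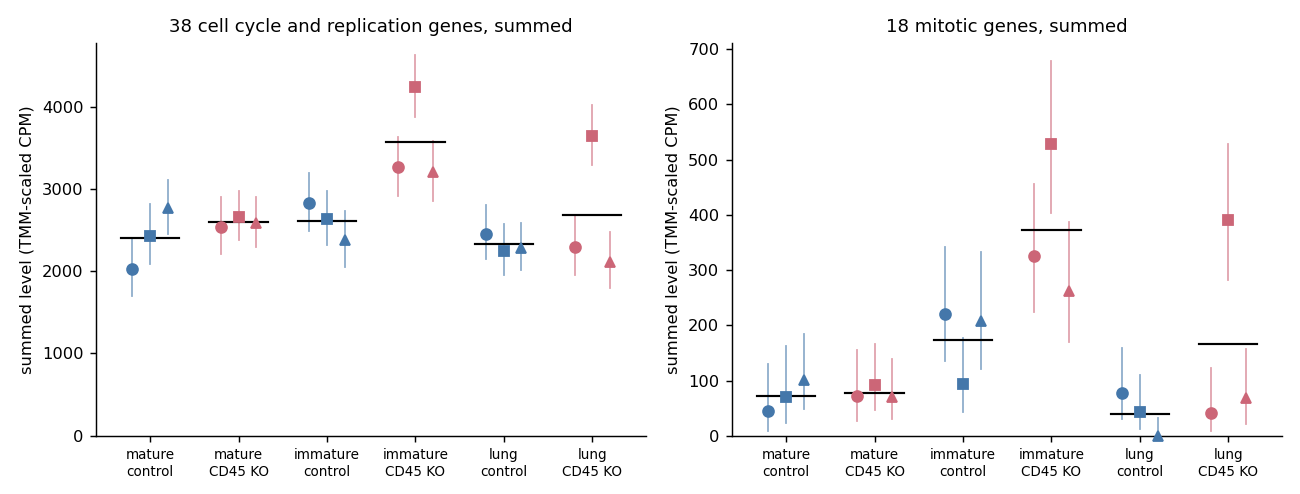
Summed level in TMM-scaled CPM (y axis) of the 38 cell cycle and replication genes (left) and of the 18 mitotic genes among them (right), by group (x axis). Each symbol is 1 library (circle, square and triangle for replicates 1, 2 and 3; blue control, red CD45 KO) with its 95% Poisson interval, which covers counting error only, and the black line is the mean of the group. The 3 immature CD45 KO libraries lie above the immature controls in both panels, and in lung only CD45 KO replicate 2, at 3648 and 391 CPM, stands above the controls' range by more than its interval.

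The mitotic programme as a sum was also higher in immature CD45 KO ILC2 than in immature controls. Its 18 genes encode the S and M phase cyclins with Cdk1 and its partners, the kinases, checkpoint proteins and ubiquitin ligase parts of mitosis, and proteins of the mitotic chromosome and spindle. They were sparse, with 269 counts over all libraries, and none passed the filter on low counts. Their parts differed between immature CD45 KO and control. The ratio of means was 1.28 with overlap for the cyclins with Cdk1 and its partners. It was 2.49 for the kinases, checkpoint and ubiquitin ligase genes and 2.96 for the chromosome and spindle genes, both without overlap. The grouping of the 18 was chosen after values were seen. Together they held 20, 9 and 17 counts in the immature controls (221, 93.0 and 207 CPM) and 33, 61 and 25 counts in the immature CD45 KO libraries (325, 528 and 263 CPM). Every CD45 KO library was above every control library, and the ratio of means was 2.14. The margin was narrow for counts this low, with 25 counts in the lowest CD45 KO library and 20 in the highest control. Leaving out each library in turn gave log2 ratios from 0.76 to 1.31. At a common depth of 68077 counts, 9.12 to 13.5 of the 18 genes would be expected to have a count in the immature CD45 KO libraries and 3.55 to 10.02 in the immature controls.

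Mature ILC2 held few mitotic transcripts in either genotype. The mature controls had 3, 5 and 10 counts (44.7, 69.4 and 100.3 CPM) and the mature CD45 KO libraries 6, 11 and 8 counts (71.5, 92.7 and 70.4 CPM), a ratio of 1.09 with overlapping groups. Within CD45 KO marrow, the mature level was 0.21 of the immature level and no libraries overlapped, also without mature CD45 KO replicate 1 (log2 ratio -2.25 with it and -2.19 without it). Within control marrow the ratio was 0.41, and the mature replicate 3 and the immature replicate 2 overlapped. Of the 18 genes, 17 had a lower mean level in mature than in immature CD45 KO ILC2, against 43.7% of all genes with a count. In controls 13 were lower and 3 higher, against 44.7% lower and 42.1% higher over all genes with a count. Markers of blood progenitors were also lower in mature than in immature CD45 KO ILC2, at 23.8, 50.5 and 70.4 CPM against 108, 121 and 126 CPM (ratio 0.41, without overlap), while in controls the ratio was 0.998 with overlap. Their part in the stage difference was not tested. Of the 38 genes, 12 were lower in every mature than in every immature CD45 KO library (Bub1b, Ccna2, Ccnb2, Cdk4, H2afz, Hmgb1, Hmgb2, Mki67, Plk1, Rrm2, Top2a and Tyms), as were 3.61% of all genes with a count. The comparison uses the same immature CD45 KO libraries as the one between genotypes.

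In lung the mitotic genes were near the detection limit in 5 of 6 libraries. The lung controls had 7, 4 and 0 counts (77.2, 42.8 and 0 CPM, where the 0 allows up to 26.4 CPM). The lung CD45 KO libraries had 3, 42 and 5 counts (41.7, 391 and 67.5 CPM). CD45 KO replicate 2 alone was high, with a 95% Poisson interval of 282 to 528 CPM, while the other 2 CD45 KO libraries lay inside the range of the controls. The log2 ratio of CD45 KO to control was 2.06 with it and 0.45 without it.

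Among the single mitotic genes, Top2a, the topoisomerase that untangles replicated chromosomes (chromosome 11, 98992943 to 99024189, minus strand, mm10), had the most counts. It had 4, 2 and 1 counts in immature controls against 7, 14 and 7 in immature CD45 KO libraries. It had 1, 1 and 6 counts in mature controls against 1, 1 and 3 in mature CD45 KO. In lung it had 1, 1 and 0 counts in controls against 0, 17 and 1 in CD45 KO. All 3 immature CD45 KO libraries were above the immature controls, and in lung 1 library carried 17 of the 18 CD45 KO counts. In a fit without the filter on low counts, over 12945 genes, Top2a did not pass in immature ILC2 (1.82 ± 0.58, SE, adjusted p = 0.323) or in lung (3.16 ± 0.82, adjusted p = 0.0587), and the lung value was -0.016 without CD45 KO replicate 2. Between stages in CD45 KO, Top2a was lower in every mature library, and the difference of -2.37 ± 0.62 did not pass (adjusted p = 0.119).

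Mki67, which encodes the proliferation marker Ki-67 of the mitotic chromosome surface (chromosome 7, 135689784 to 135716361, minus strand, mm10), had 4, 0 and 1 counts in immature controls against 6, 9 and 5 in immature CD45 KO libraries. It was at 0 in all 3 mature controls, and had 0, 2 and 0 counts in mature CD45 KO. In lung it had 1, 0 and 0 counts in controls against 0, 5 and 0 in CD45 KO, with all 5 in the library that also carried the Top2a counts. The immature CD45 KO libraries were all above the immature controls, but the change did not pass (1.80 ± 0.69, SE, adjusted p = 0.638, fit without the filter). Cenpa, the histone that marks centromeres, had 5 counts in immature controls and 10 in immature CD45 KO. Nusap1, a spindle-binding protein, had 1 count in immature controls, 5 in immature CD45 KO and 6 in lung CD45 KO, 5 of them in replicate 2.

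The other 14 mitotic genes had 1 to 24 counts each over the 18 libraries. Among the cyclins and Cdk1 partners, Ccna2, the cyclin of S phase and mitotic entry, had 3 counts in immature controls and 10 in immature CD45 KO. Ccnb2, a mitotic cyclin, had 2 and 6, and Cdk1, its kinase, had 2 and 5. Cks2, a small Cdk-binding protein, had fewer, 8 and 5, and with Cks1b and Aurka was 1 of the 3 mitotic genes with a lower mean level in immature CD45 KO. The summed level of these 6 genes was 76.4 ± 40.8 CPM in immature controls and 97.7 ± 23.8 CPM in immature CD45 KO, and the groups overlapped. The 8 kinases, checkpoint and ubiquitin ligase genes (Aurka, Aurkb, Plk1, Bub1, Bub1b, Cdc20, Ube2c and Birc5) held 4, 0 and 4 counts in immature controls against 5, 15 and 5 in immature CD45 KO. Bub1b, a spindle checkpoint kinase, had 1 count against 7, and Birc5, the survivin subunit of the Aurora B complex, had 1 against 5. Bub1 was seen in 1 library only, as 1 count.

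**Figure D2:**
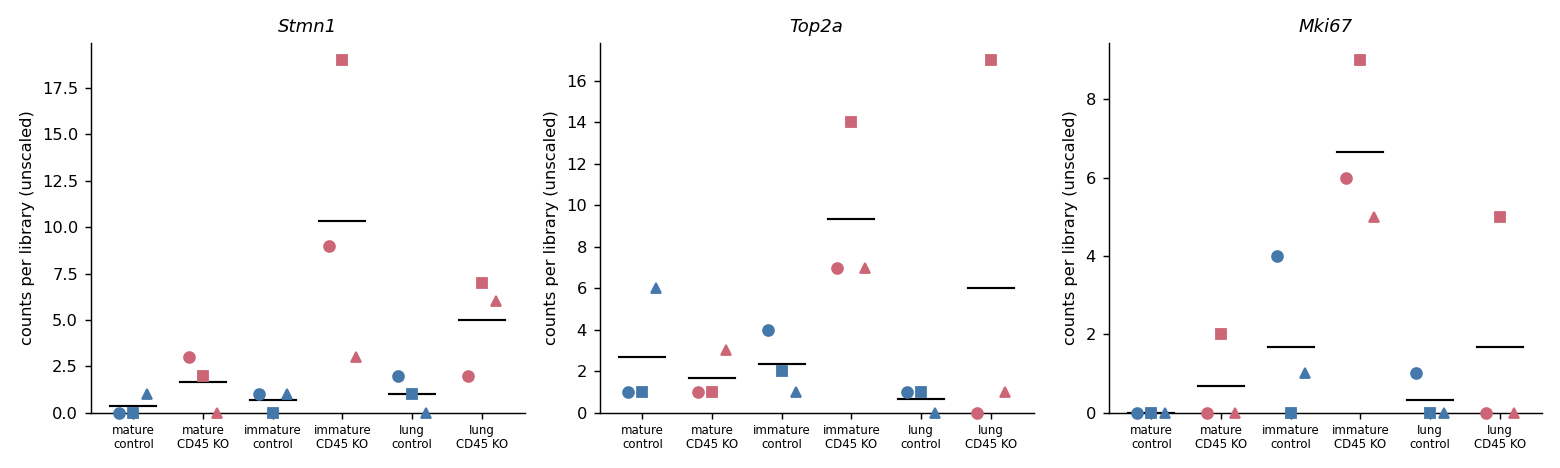
Counts per library (y axis, not scaled for library size) of Stmn1, Top2a and Mki67 by group (x axis), with circle, square and triangle for replicates 1, 2 and 3, blue for control, red for CD45 KO and a black line at the group mean. Immature CD45 KO libraries hold 3 to 19, 7 to 14 and 5 to 9 counts of the 3 genes, and in lung the high points of Top2a and Mki67 are the same library, CD45 KO replicate 2.

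Promoters of cell cycle genes are known for a few short elements. The cell cycle genes homology region (CHR) is bound by the MuvB complexes of late cell cycle genes, CCAAT boxes by NF-Y, and E2F sites by E2F factors. Promoter windows from 250 bases before to 50 after the start were taken from RefSeq (GRCm38.p6) for the 33 genes that matched by symbol or synonym, which have 36 windows in all. A CHR match was counted on either strand for TTTGAA or TTCGAA, an NF-Y match for CCAAT, and an E2F match for TTTCCCGC, TTTCGCGC, TTTGCCGC or TTTGGCGC, and E2F matches may overlap each other. A CHR match stood in 12 of the 16 windows of mitotic genes (75%), against 19.2% of 32851 promoter windows in the genome. A CCAAT box stood in 14 of these 16 (87.5%, against 37.4%). An E2F match stood in 4 of 11 windows of helicase, clamp and nucleotide synthesis genes (36.4%), against 1 of the 16 mitotic windows and 2.26% of all windows. The 5 windows of the G1 cyclins and kinases held no CHR. A match is a description of the sequence and not a bound site.

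The 150 bases directly before the RefSeq start are given for the 2 mitotic genes with the most counts, for Hmgb2, which passed the test, and for Mcm6, a helicase gene, followed by 100 bases of Cdk6. Top2a, Mki67 and Mcm6 were chosen after their values were seen. Each is written 5′ to 3′ on the strand of the gene, and capitals mark the CHR, CCAAT and E2F matches on either strand.
Top2a, chr11:99024190-99024339, minus strand: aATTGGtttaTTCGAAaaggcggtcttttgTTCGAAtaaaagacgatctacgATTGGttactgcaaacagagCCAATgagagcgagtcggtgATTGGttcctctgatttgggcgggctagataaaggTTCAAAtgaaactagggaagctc
Mki67, chr7:135716380-135716529, minus strand: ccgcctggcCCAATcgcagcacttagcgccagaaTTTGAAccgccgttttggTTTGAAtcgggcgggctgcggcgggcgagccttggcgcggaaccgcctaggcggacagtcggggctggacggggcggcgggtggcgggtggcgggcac
Hmgb2, chr8:57511693-57511842, plus strand: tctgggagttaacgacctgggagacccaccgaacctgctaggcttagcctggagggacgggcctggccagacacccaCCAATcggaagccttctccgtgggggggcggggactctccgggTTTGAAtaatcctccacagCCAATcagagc
Mcm6, chr1:128359706-128359855, minus strand: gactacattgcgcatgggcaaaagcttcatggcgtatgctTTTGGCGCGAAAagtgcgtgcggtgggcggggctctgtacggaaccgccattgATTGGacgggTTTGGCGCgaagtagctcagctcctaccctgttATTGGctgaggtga
Cdk6, chr5:3343793-3343892, plus strand: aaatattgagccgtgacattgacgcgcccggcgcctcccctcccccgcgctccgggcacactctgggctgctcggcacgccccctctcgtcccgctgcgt
The printed bases hold 3 CHR matches in Top2a, 2 in Mki67 and 1 in Hmgb2, 3 E2F matches in Mcm6, and no match in Cdk6, whose window of 300 bases also held none. Starts are those of RefSeq and can differ from the GENCODE positions given for the genes. The RefSeq start of Cdk6 lies inside the gene as GENCODE places it, so its printed bases are not upstream of the GENCODE start.

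**Figure D3:**
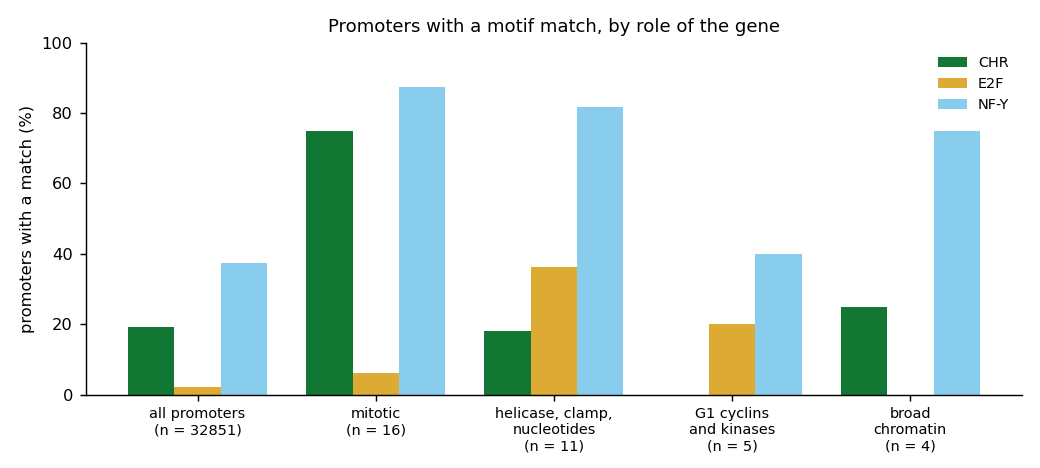
Percentage of promoter windows (y axis) that hold a CHR, E2F or CCAAT (NF-Y) match on either strand, for all 32851 windows and for the windows of the cell cycle and replication genes by role (x axis). The CHR bar is highest for the mitotic genes, at 75% against 19.2% of all windows, and the E2F bar is highest for the helicase, clamp and nucleotide synthesis genes, at 36.4% against 2.26%.

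The 5 G1 cyclins and kinases held the most counts of any role. Their sum was at 969, 1319 and 1233 CPM in mature controls and at 1370.1, 1365 and 1443 CPM in mature CD45 KO, a ratio of 1.19 without overlap. It was at 1149.8, 1334 and 696 CPM in immature controls and at 1173, 1566 and 1239 CPM in immature CD45 KO (ratio 1.25, with overlap). In lung it was at 1025, 888 and 1090.3 CPM in controls and at 987, 1061 and 850.04 CPM in CD45 KO (ratio 0.97), and within CD45 KO the lung libraries were all below the marrow libraries (ratio 0.71). Cdk6 was the gene among the 38 whose changes passed the test most often. Cdk6 encodes a kinase of the D-type cyclins that is prominent in blood cells (chromosome 5, 3341485 to 3531008, plus strand, mm10). It was at 59.6, 236 and 180.5 CPM in mature controls and at 369, 312 and 202 CPM in mature CD45 KO. It was at 210.1, 176 and 73.2 CPM in immature controls and at 266, 234 and 252 CPM in immature CD45 KO. The immature groups did not overlap, and in mature ILC2 only CD45 KO replicate 3 lay inside the control range. Averaged over both marrow stages, Cdk6 rose in CD45 KO by 0.75 ± 0.21 (log2, SE, adjusted p = 0.0297, edgeR). In that comparison 2.97% of the 1916 genes tested passed, and Cdk6 was the only one of the 7. It did not pass in mature ILC2 (0.82 ± 0.30, adjusted p = 0.320) or in immature ILC2 (0.68 ± 0.30, adjusted p = 0.313) taken alone. The marrow call was lost with the Wald test of DESeq2 (adjusted p = 0.213) and without any 1 of mature control replicates 1 and 3, mature CD45 KO replicate 2, immature control replicate 3 and immature CD45 KO replicate 1 (adjusted p up to 0.120, for the mature control replicate 1 that held granulocyte markers). It was 0.68 ± 0.21 without mature CD45 KO replicate 1 (adjusted p = 0.0498).

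Cdk6 was lower in lung than in marrow in both genotypes. The lung controls were at 33.1, 53.5 and 106 CPM and the lung CD45 KO libraries at 111, 93.1 and 94.4 CPM. Against the mean of both marrow stages, Cdk6 fell by 1.23 ± 0.36 on the log2 scale in controls (adjusted p = 0.00471) and by 1.43 ± 0.30 in CD45 KO (adjusted p = 7.52e-05). In CD45 KO every lung library was below every marrow library, as for 11% of tested genes, and in controls the groups overlapped. The tissue difference was broad: 31.1% of tested genes passed in controls and 28.1% in CD45 KO. Against these shares, 1 of the 7 cell cycle genes passed in controls and 3 in CD45 KO, which is no result about the set. In controls the call was lost without lung control replicate 1 (adjusted p = 0.0671). The CD45 effect on Cdk6 did not pass in lung, and none of the 7 genes passed in the difference of the CD45 effect between lung and marrow (1.25% of tested genes passed).

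Ccnd2, the D-type cyclin with most of the counts, held 29.9% of all counts of the 38 genes and so weighs heavily in their sum. It was at 656, 930.0 and 842 CPM in mature controls (809 ± 140.0) and at 858, 960.3 and 1082 CPM in mature CD45 KO (967 ± 112). It was at 796, 899 and 451.5 CPM in immature controls (716 ± 234) and at 749, 1038 and 798 CPM in immature CD45 KO (862 ± 155). In lung it was at 749.5, 685 and 862 CPM in controls and at 751, 828 and 621 CPM in CD45 KO. These values overlapped between genotypes at every site, and the change averaged over the marrow stages was 0.26 ± 0.12 (adjusted p = 0.260). Ccnd3, another D-type cyclin, was at group means of 79.6 to 108 CPM and passed in no comparison. Its marrow libraries were at 89.4, 83.3 and 70.2 CPM (mature control), 83.4, 67.4 and 87.98 CPM (mature CD45 KO), 66.3, 124 and 73.2 CPM (immature control) and 78.9, 147 and 94.5 CPM (immature CD45 KO). Its lung libraries were at 154, 107 and 61.6 CPM in controls and at 69.5, 102 and 108 CPM in CD45 KO, and no groups stood apart. Cdk4, the partner kinase of the D-type cyclins, lay below the filter, with 25 counts in mature controls, 13 in mature CD45 KO, 18 in immature controls, 26 in immature CD45 KO, 19 in lung controls and 9 in lung CD45 KO. In mature and in lung ILC2 every CD45 KO library was below every control, as for 4.36% and 4.01% of all genes with a count, and Cdk4 passed nowhere. Cdk2, the kinase of cyclin E and cyclin A, had 3, 0 and 2 counts in mature controls, 3, 4 and 3 in immature controls and 0 in the 3 lung controls. Its pooled level in marrow controls, 29.5 CPM, was 2.93 times the level of 3 counts over the lung controls (10.1 CPM). That ratio leaves out the counting error of the marrow counts. In CD45 KO Cdk2 had 1, 1 and 1 counts in mature, 1, 5 and 2 in immature and 1, 0 and 0 in lung ILC2. The difference in controls passed in the fit without the filter (adjusted p = 0.0338), though not when mature control replicates 1 or 3, immature control replicate 2 or any lung control was left out (adjusted p up to 0.153). In that fit 5.28% of 12945 genes passed.

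**Figure D4:**
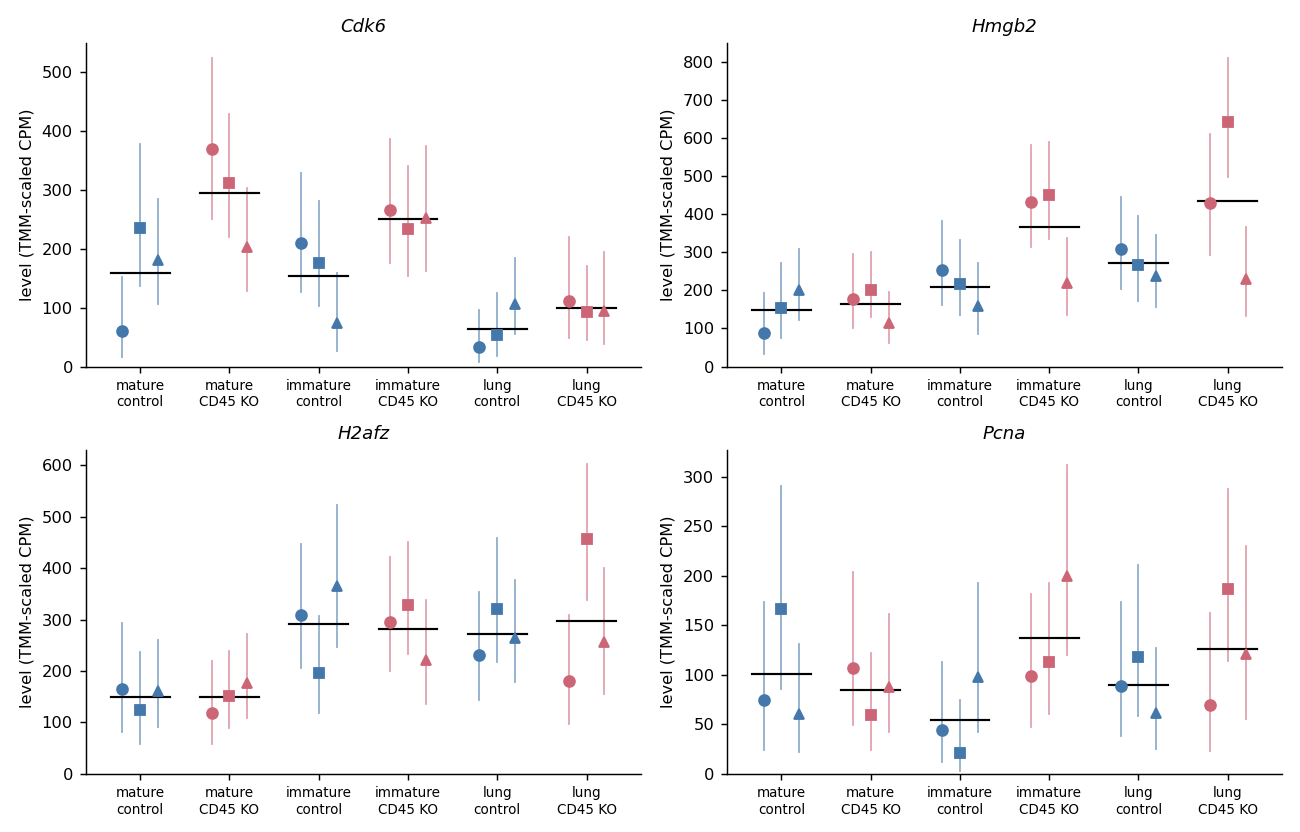
Level in TMM-scaled CPM (y axis) of Cdk6, Hmgb2, H2afz and Pcna in each library by group (x axis), with 95% Poisson intervals for counting error, circle, square and triangle for replicates 1, 2 and 3, blue for control, red for CD45 KO and a black line at the group mean. Cdk6 is lowest in the lung groups, at means of 64.0 and 99.6 CPM, while the lung groups of Hmgb2 are at 271 and 434 CPM.

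The replicative helicase and its clamp lay above the controls in immature CD45 KO ILC2 as a sum. The 7 genes were at 394, 415 and 525 CPM in immature CD45 KO and at 232, 227 and 366 CPM in immature controls, a ratio of 1.62 without overlap. They were at 298, 319 and 371 CPM in mature controls and at 357, 303 and 396 CPM in mature CD45 KO (ratio 1.07). In lung they were at 265, 214 and 193 CPM in controls and at 223, 382 and 229 CPM in CD45 KO (ratio 1.24), where replicate 2 was again the high library. Pcna, the sliding clamp that holds polymerases on DNA, was at 44.2, 20.7 and 97.6 CPM in immature controls and at 98.6, 112 and 199.6 CPM in immature CD45 KO. These groups did not overlap, by a narrow margin, and the change of 1.35 ± 0.46 did not pass (adjusted p = 0.134). Of the 7 tested genes, Pcna and Cdk6 were higher without overlap in immature CD45 KO, where 9.39% of tested genes were. In mature ILC2 Pcna was at 74.5, 167 and 60.2 CPM in controls and at 107, 59.0 and 87.98 CPM in CD45 KO. In lung it was at 88.2, 118 and 61.6 CPM in controls and at 69.5, 186 and 121 CPM in CD45 KO, and both pairs of groups overlapped.

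Among the helicase subunits, Mcm6 had the most counts, with 12 in immature controls and 31 in immature CD45 KO, 11 and 21 in mature ILC2, and 9 and 5 in lung. It was at 44.2, 41.4 and 48.8 CPM in immature controls and at 78.9, 130 and 84.0 CPM in immature CD45 KO, without overlap. In mature ILC2 it was at 44.7, 55.5 and 40.1 CPM in controls and at 47.7, 84.2 and 61.6 CPM in CD45 KO, and in lung at 33.1, 21.4 and 35.2 CPM and at 27.8, 18.6 and 13.5 CPM. The change in immature ILC2 did not pass in the fit without the filter (1.22 ± 0.50, SE, adjusted p = 0.759). In CD45 KO, Mcm6 was lower in lung than in marrow in that fit (-1.94 ± 0.59, adjusted p = 0.0231, with 4.8% of genes passing), and leaving out any lung CD45 KO library, mature CD45 KO replicate 2 or immature CD45 KO replicate 2 ended the call (adjusted p up to 0.164). Mcm2, Mcm3, Mcm4, Mcm5 and Mcm7 had 38 to 70 counts each in all, and none passed in any comparison in the fit without the filter. In that fit 0.0541%, 0.255% and 0.17% of genes passed for CD45 KO in mature, immature and lung ILC2, 0.317% over both marrow stages, 0.0309% for the stage difference in controls and 0.0695% for the difference of the CD45 effect between lung and marrow. For example, Mcm3 had 10 counts in immature controls and 18 in immature CD45 KO, of which replicates 1 and 2 held 17.

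Nucleotide synthesis was close to the limit of detection. Rrm1 and Rrm2, the subunits of ribonucleotide reductase, Tyms, the thymidylate synthase, and Tk1, the thymidine kinase of S phase, had 95 counts in all. Their sum was at 66.3, 51.7 and 48.8 CPM in immature controls and at 49.3, 121 and 116 CPM in immature CD45 KO, and these groups overlapped. Rrm2, the subunit that limits the enzyme in S phase, had 0, 1 and 1 counts in immature controls against 2, 5 and 4 in immature CD45 KO. In mature CD45 KO the sum was 0.35 of that in immature CD45 KO, and no libraries overlapped. No gene of this role passed.

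The chromatin and tubulin genes mark dividing cells less specifically, since resting cells express them too. Hmgb2, a DNA-bending protein abundant in cycling lymphocytes (chromosome 8, 57511907 to 57515999, plus strand, mm10), was at 254, 217 and 159 CPM in immature controls and at 434, 450.0 and 221 CPM in immature CD45 KO. It was at 89.4, 153 and 200.5 CPM in mature controls and at 179, 202 and 114 CPM in mature CD45 KO. Within CD45 KO marrow every mature library was below every immature library, and Hmgb2 fell by 1.18 ± 0.27 on the log2 scale from immature to mature (adjusted p = 0.0106), where 0.678% of tested genes passed. It was the only one of the 7 to pass there. The call was lost with the Wald test of DESeq2 (adjusted p = 0.288) and without mature CD45 KO replicate 3, immature CD45 KO replicate 1 or immature CD45 KO replicate 2 (adjusted p up to 0.155). In controls the same stage difference passed for none of the 7 genes and for 0.0522% of those tested, and the difference of the stage effect between genotypes, added after seeing the data, passed for none of the 7 genes and 0 of 1916 tested by edgeR, with 94 at an unadjusted p under 0.05.

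Hmgb2 did not pass for CD45 KO against control in immature ILC2 (0.81 ± 0.27, adjusted p = 0.125, with 1.67% of tested genes passing) or in lung (0.75 ± 0.25, adjusted p = 0.0964, with 2.51% passing). In mature ILC2 0.261% of tested genes passed, and none of the 7 did. The lung libraries of Hmgb2 were at 309, 267 and 237 CPM in controls and at 431, 642 and 229 CPM in CD45 KO, so that 1 CD45 KO library was below all 3 controls. Without CD45 KO replicate 3 the lung change passed (1.06, adjusted p = 0.00856), without CD45 KO replicate 2 it was 0.29 (adjusted p = 0.803), and without immature CD45 KO replicate 3 the immature change passed (1.07, adjusted p = 0.0222). Between tissues, Hmgb2 rose in lung against marrow in CD45 KO by 0.87 ± 0.22 (adjusted p = 0.000916), but not without lung CD45 KO replicate 2 (0.42, adjusted p = 0.308). In controls the difference was 0.57 ± 0.26 (adjusted p = 0.0851).

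H2afz, a histone H2A variant at promoters and centromeres, was at 309.6, 196 and 366 CPM in immature controls and at 296, 329 and 221 CPM in immature CD45 KO. It was lower in all mature libraries, at 164, 125 and 160.4 CPM in controls and at 119, 152 and 176 CPM in CD45 KO. Mature and immature libraries did not overlap in either genotype, as for 5.11% of tested genes lower without overlap in controls and 5.9% in CD45 KO, but the differences of -0.92 ± 0.31 and -0.90 ± 0.28 did not pass (adjusted p = 0.802 and 0.140). In lung H2afz was at 231.5, 321 and 264 CPM in controls and at 181, 456 and 256 CPM in CD45 KO. Its rise in lung against marrow in CD45 KO, 0.60 ± 0.23 (adjusted p = 0.0427), was 0.09 without lung CD45 KO replicate 2 (adjusted p = 0.880), and was also lost without mature CD45 KO replicate 1 (adjusted p = 0.0574), without immature CD45 KO replicate 3, without the filter and with DESeq2. Hmgb1, the broadly expressed relative of Hmgb2, was at group means of 407 to 586 CPM and passed in no comparison. Its mature libraries were at 432, 416 and 632 CPM in controls and at 381, 489 and 352 CPM in CD45 KO, and its immature libraries at 586, 517 and 525 CPM and at 503, 666 and 588 CPM. Its lung libraries were at 496, 438.5 and 466 CPM in controls and at 348, 568 and 364 CPM in CD45 KO. In CD45 KO its mature libraries lay below its immature ones (-0.52 ± 0.19, adjusted p = 0.289). Hmgb1, Hmgb2, H2afz and Stmn1 have pseudogene copies, and their counts are uncertain because no source used here says how shared reads were counted.

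Stmn1, a tubulin-binding protein that cells raise when they proliferate (chromosome 4, 134468320 to 134473843, plus strand, mm10), lay below the filter. It had 1, 0 and 1 counts in immature controls against 9, 19 and 3 in immature CD45 KO. It had 0, 0 and 1 counts in mature controls against 3, 2 and 0 in mature CD45 KO, and in lung 2, 1 and 0 in controls against 2, 7 and 6 in CD45 KO. The immature CD45 KO libraries were all above the immature controls, and the highest was again replicate 2. In lung they were also above, but the change of 2.42 ± 0.79 did not pass (adjusted p = 0.412). Stmn1 was the only one of the 38 to pass for CD45 KO against control at a single site in the fit without the filter, with a rise of 3.59 ± 0.74 (log2, SE, adjusted p = 0.0016) in immature ILC2, where 0.255% of 12945 genes passed. The call was lost without immature CD45 KO replicate 2 (2.87, adjusted p = 0.417) and without immature control replicate 2 (3.06, adjusted p = 0.0804). In the same fit Stmn1 was lower in mature than in immature CD45 KO ILC2 (-2.51 ± 0.61, adjusted p = 0.0462, with 0.0927% of genes passing), and this was lost without mature CD45 KO replicate 2 or 3 or immature CD45 KO replicate 1 or 2 (adjusted p up to 0.980).

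**Figure D5:**
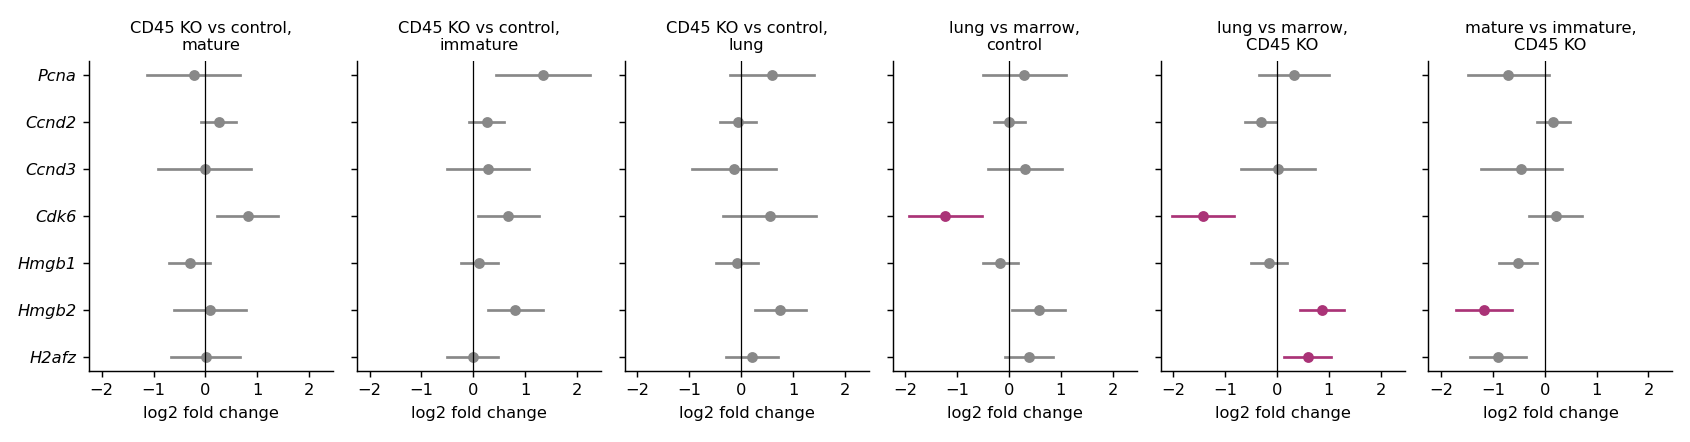
Log2 fold change (x axis) with 95% interval of the 7 tested genes (y axis) in 6 comparisons, from edgeR over all 18 libraries. Coloured points passed at an adjusted p under 0.05 over 1916 genes and grey points did not: Cdk6 is lower in lung in both genotypes, Hmgb2 and H2afz are higher in lung in CD45 KO, Hmgb2 is lower in mature than in immature CD45 KO ILC2, and no point passed in the 3 panels of CD45 KO against control.

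Other genes of the same pathways were read from lists of 36 replication genes, 40 mitotic genes, 13 G1 regulators and 15 cell cycle inhibitors. The 40 mitotic genes were summed to 553, 434 and 659 CPM in immature controls and to 779, 926 and 704 CPM in immature CD45 KO, a ratio of 1.46 without overlap. In lung they were at 231, 310 and 299 CPM in controls and at 320, 819 and 364 CPM in CD45 KO, with replicate 2 the highest. The lung groups also did not overlap, but by a narrow margin, 320 against 310 CPM. In mature ILC2 the 40 genes were at 484 ± 34.6 and 478 ± 106 CPM. Smc4, a condensin subunit, had the most counts of them, 296. The 36 replication genes were at 738 ± 225 CPM in immature controls and 777 ± 127 CPM in immature CD45 KO, and overlapped.

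Of the pathway genes outside the 38, 7 inhibitors, 3 G1 regulators and 1 mitotic gene were tested, and none passed for CD45 KO against control at a single site. Tob1, an antiproliferative protein, fell by 1.81 ± 0.48 in CD45 KO over both marrow stages (adjusted p = 0.0178, edgeR), with 1 to 10 counts in each marrow library. Its CD45 KO libraries were below the controls within each stage, but overlapped with them when the stages were pooled. In lung the Tob1 change of 0.92 ± 0.71 went the other way and did not pass (adjusted p = 0.627). The Tob1 call was not recomputed with other settings or with libraries left out. The inhibitors as a sum were at 1624, 1777 and 1784 CPM in mature controls and at 2144, 1929 and 1874 CPM in mature CD45 KO (ratio 1.15, without overlap). In immature ILC2 they were lower in CD45 KO, at 1370.1, 1428 and 1323 CPM against 1537, 1850.5 and 1696 CPM in controls (ratio 0.81, without overlap). In lung they were at 4601 to 6294 CPM, above every marrow library. Btg1 held 3650 of the 5053 counts of the inhibitors, with a mean of 4694 CPM in lung controls where the sum was at 5992 CPM. In mature ILC2 its mean was 1112 CPM in controls and 1464 CPM in CD45 KO, beside mean sums of 1728.5 and 1982 CPM. Of the other tested inhibitors there, Klf2 and Ccng1 had higher means in CD45 KO, while Tob1, Cdkn1b, Btg2 and Cdkn1a had lower ones. In immature ILC2 the Btg1 mean was 1049 CPM in controls and 853 CPM in CD45 KO, beside mean sums of 1694.5 and 1374 CPM. In lung against marrow, 3 of the 7 tested inhibitors rose and 2 fell in each genotype, where 31.1% of tested genes passed in controls and 28.1% in CD45 KO. Cdkn1a, which encodes the Cdk inhibitor p21, had 42, 34 and 47 counts in lung controls (means of 413 CPM in lung, 13.3 CPM in mature and 0 CPM in immature controls) and 27, 60 and 21 in lung CD45 KO, with at most 2 counts in any marrow library, and it passed as higher in both genotypes. Btg2 rose by 2.30 ± 0.23 in controls and 3.26 ± 0.22 in CD45 KO, and Btg1, its antiproliferative relative, by 2.12 ± 0.11 and 1.76 ± 0.11. Klf2, a quiescence factor of lymphocytes, had 1 count over the 3 lung libraries of each genotype and 6 to 27 counts in each marrow library, and it passed as lower in both. Adjusted p was at most 5.17e-07 for these 4 genes. Among the G1 regulators, Rb1, the retinoblastoma protein, rose by 1.54 ± 0.36 and 1.95 ± 0.37, and its relative Rbl2 fell by 0.73 ± 0.23 and 0.96 ± 0.28. In CD45 KO, Myc also rose in lung (0.95 ± 0.34) and Smc4 fell by 0.82 ± 0.26. Btg1 rose in mature against immature CD45 KO ILC2 (0.76 ± 0.15, adjusted p = 0.000889).

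Markers of other cells were set beside the mitotic sum. The 5 markers of blood progenitors, which divide, were summed to 122, 93.0 and 73.2 CPM in immature controls and to 108, 121 and 126 CPM in immature CD45 KO, with Flt3 at 0 in all 18 libraries. They were at 40.1 to 164 CPM in mature controls and at 13.9 to 40.5 CPM in lung, and lung CD45 KO replicate 2, the library with the high mitotic sum, was at 37.2 CPM. Of the granulocyte and macrophage markers this library held 0 counts, and of the neutrophil precursor markers 0 counts. Erythroid markers, another dividing lineage of the marrow, were at 85.4 to 114 CPM in immature controls and 86.5 to 158 CPM in immature CD45 KO, with Hbb-bs and Hbb-bt at 0. The part of the progenitor and erythroid markers in the mitotic difference of immature ILC2 was not tested.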

How the data were processed

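The authors deposited raw counts, one whole number for each gene symbol in each of 18 libraries of sorted ILC2. Per the labels' protocols, these were made from lysate by oligo-dT priming with a molecular barcode, template switching and PCR. The submitters' processing notes name STAR and mm10. How reads were counted, with or without strand or collapsing by barcode, was not given in the sources used here. Series text and extract protocol differ on the number of cells per sample.

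Counts were TMM-scaled, filtered with filterByExpr by group (minimum count 10) and fitted with edgeR 4.0.16 (R 4.3.3) as 6 group means over 18 libraries, with quasi-likelihood tests of contrasts and Benjamini-Hochberg adjustment over 1916 genes (threshold 0.05). SE is the absolute log2 change over the root of F. Sums over genes carry exact Poisson intervals (95%) and no test. Alternatives were DESeq2 1.42.0 (size factors, and its Wald test), other filters, contrast-only fits, a replicate block and leaving out each library. The steps were tested on simulated data. Gene positions are from GENCODE.

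The 38 genes and the lists were chosen with earlier results of these data known. By rule, all 38 are accounted for, with values in every library for genes that passed the filter or a comparison, and up to 4 passing genes are named per list and comparison. The sum over mitotic roles, the counts of higher and lower levels, the stage difference between genotypes and the left-out libraries for genes below the filter were chosen after seeing the data.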

Additional observations from a re-analysis of the deposited data

How the results depend on the processing

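Of 282 values recomputed with a changed setting, 250 were kept, and of 534 recomputed with 1 library left out 459 were. A tested change was kept if its direction and side of the threshold stayed the same. A count of passing genes was kept if it was equal to that of the main fit or within a fixed fold of it. A summed ratio was kept if it moved by less than the spread between libraries. The fit without the filter moved the median of the tested genes by up to 0.13 (log2), and gave 1 passing gene of the 38 in place of 0 for immature CD45 KO (Stmn1), 2 in place of 1 for lung against marrow in controls (Cdk2 and Cdk6) and 2 in place of 1 for mature against immature CD45 KO (Stmn1 and Hmgb2). Over all genes it gave 22 in place of 48 passing in lung CD45 KO, 4 in place of 1 for the stage difference in controls and 9 in place of 24 for the difference of CD45 effects between lung and marrow, with more genes adjusted for. The Wald test of DESeq2 gave 1 passing gene in place of 5 in mature, 10 in place of 32 in immature and 19 in place of 57 over both marrow stages, 3 in place of 13 for the stage difference in CD45 KO, and 0 of the 38 in place of 1 in the last 2. Fits of the compared libraries alone gave 0 in mature CD45 KO, 3 and 7 for the stage difference in controls and in CD45 KO, and 2 of the 38 for lung against marrow in controls (Cdk6 and Hmgb2).

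The log2 ratio of the sum over the 38 genes depended on the broadly expressed roles. Without the G1 and the chromatin and tubulin genes it was 0.85 in place of 0.45 in immature CD45 KO, 0.71 in place of 0.21 in lung, 0.47 in place of 0.28 over both marrow stages, -0.61 in place of -0.11 for lung against marrow in controls, -0.97 in place of -0.46 for mature against immature CD45 KO, 0.25 in place of -0.07 for lung minus marrow and -0.78 in place of -0.34 for the stage difference between genotypes. Without only the chromatin and tubulin genes it was -0.28 and -0.47 for lung against marrow in controls and CD45 KO and -0.27 for the stage difference in CD45 KO, which was -0.73 without Ccnd2.

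With 1 library left out, the passing genes ranged from 3 to 12 in mature, 12 to 26 in immature, 29 to 42 in lung and 36 to 91 over both marrow stages, 8 to 19 for the stage difference in CD45 KO and 9 to 35 for lung minus marrow. Of the 38, 0 to 1 passed in immature ILC2, over both marrow stages and for the stage difference in CD45 KO, 0 to 2 in lung and for lung against marrow in controls, and 1 to 3 for lung against marrow in CD45 KO. The summed ratio ranged from -0.46 to -0.035 for lung against marrow in CD45 KO and from -0.36 to 0.072 for lung minus marrow, and the mitotic sum from 0.45 to 2.96 for lung CD45 KO against control and from -1.64 to 0.43 for lung against marrow in CD45 KO. The values of -0.46, -0.36, 0.45 and -1.64 are those without lung CD45 KO replicate 2, and without it Top2a in lung was -0.016.

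Same-numbered libraries did not deviate together (correlations of -0.09 to 0.08). With so few counts per library, such correlations cannot show whether the numbers pair the samples. With the replicate number as a block, 6, 30 and 44 genes passed in mature, immature and lung CD45 KO in place of 5, 32 and 48, and none of the calls of the 38 changed. Depth limits the 31 genes below the filter, which had at most 19 counts in any library.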
